A study of Mus musculus with 51 samples.

Results

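Olfactory receptor (OR) genes *Olfr330*, *Olfr329*, *Olfr328*, *Olfr325*, *Olfr315* and *Olfr314* are 6 of the 1117 OR genes measured in 51 pS6-IP-Seq libraries of mouse whole olfactory mucosa. They were chosen by their symbols, and the symbols were chosen on the measured shares of OR reads in the libraries of mice exposed to 10 mM (methylthio)methanethiol (MTMT) and to cyclopentadecanone (CPD), so their levels in those 2 exposures are given as a description, with no test of the 6 genes there. All 6 were present in each of the 10 count tables used and passed the filter of at least 10 reads in each of the 10 comparisons.

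Each olfactory sensory neuron (OSN) expresses 1 OR gene, from 1 allele, and ORs are G protein-coupled receptors that bind odorants at the cilia of the neuron. Neurons that have recently fired carry phosphorylated ribosomal protein S6 (pS6), and immunoprecipitation with an antibody against pS6 retrieves their ribosomes with the mRNA being translated. An OR whose neurons responded to an odor therefore takes up a larger share of the OR reads of an exposed mouse than of a control mouse. OR genes lie in clusters on most chromosomes, where neighboring genes often arose by duplication and remain similar in sequence.

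Mice were wild-type C57BL/6J, of both sexes mixed and about 3 weeks old, habituated without odor and then exposed for 1 hr to 10 μL of stimulus or diluent. MTMT, a volatile of male mouse urine, was used at 10 mM and at 100 μM, and CPD, a macrocyclic musk odorant, at 100 mM, all in ethanol. The other exposures were 1% β-caryophyllene, 100% (E)-β-farnesene, 1% 2,5-dimethylpyrazine (2,5-DMP), 77% dehydro-exo-brevicomin (DHB), and 2-sec-butyl-4,5-dihydrothiazole (SBT) at 0.01%, 1% and 100%, in water where diluted. There were 10 odor groups and 7 control groups of 3 libraries each. Mice exposed to 100 μM MTMT, (E)-β-farnesene and 2,5-DMP shared their 3 controls, as did mice exposed to 1% and 100% SBT, and the labels do not name the diluent that a control mouse received. The study describes the mice as littermates matched between odor and control, but the labels do not say which libraries came from 1 litter. Between 27301 and 160001 reads per library, with a median of 93870, were assigned to OR genes. Since the files hold OR genes alone, the tissue was not checked against markers of other cell types. Each library came from 1 mouse, and libraries of 1 group differed beyond counting noise in all 51 pairs within groups. In whole tissue, fewer cells of a type and less RNA per cell cannot be told apart.

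The 6 genes lie on mouse chromosome 11 (GRCm38) within 262 kb, in a cluster of 20 measured ORs that runs from *Olfr332* to *Olfr311*. They belong to 2 subfamilies in the MOR naming of mouse ORs, in which genes of similar sequence share a number. MOR275 includes *Olfr330* (ENSMUSG00000050818, chr11:58527186-58534836), *Olfr329* (ENSMUSG00000064252, chr11:58539801-58546422) and *Olfr328* (ENSMUSG00000057654, chr11:58550854-58555636), all on the minus strand, and *Olfr325* (ENSMUSG00000060765, chr11:58577730-58582365) on the plus strand. MOR278 comprises *Olfr315* (ENSMUSG00000056959, chr11:58773188-58780251) and *Olfr314* (ENSMUSG00000059504, chr11:58782952-58788768), both on the plus strand. *Olfr325* and *Olfr315* are separated by 191 kb that hold 8 other ORs. The files hold 6 MOR275 genes, and the other two are *Olfr224*, between *Olfr328* and *Olfr325*, and *Olfr331*, which had 0 to 2 reads in each library. All 6 are annotated as protein coding in GENCODE M21, where *Olfr329* carries the pseudogene suffix ps in its name. The coding sequence is a single exon in 5 of them and is split over 2 exons in the model of *Olfr329*.

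The coding sequences show how alike the MOR275 genes are and how far the MOR278 pair stands from them. The stretch of 120 bases shown here spans the end of the third transmembrane helix and the start of the second intracellular loop, where ORs carry a conserved motif that is used in contacting the G protein. It lies in coding exons at chr11:58529562-58529681 (minus strand) for *Olfr330*, chr11:58543052-58543171 (minus) for *Olfr329*, chr11:58551830-58551949 (minus) for *Olfr328*, chr11:58581149-58581268 (plus) for *Olfr325*, chr11:58778420-58778539 (plus) for *Olfr315* and chr11:58786521-58786640 (plus) for *Olfr314*. Sequences are from the GRCm38 reference, 5′ to 3′ on the coding strand, and capitals mark bases that differ from *Olfr330*.
Olfr330: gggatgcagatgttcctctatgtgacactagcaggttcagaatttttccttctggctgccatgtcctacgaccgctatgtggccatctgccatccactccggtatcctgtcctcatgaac
Olfr329: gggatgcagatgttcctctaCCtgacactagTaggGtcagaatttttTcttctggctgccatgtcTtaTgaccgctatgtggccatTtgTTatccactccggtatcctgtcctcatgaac
Olfr328: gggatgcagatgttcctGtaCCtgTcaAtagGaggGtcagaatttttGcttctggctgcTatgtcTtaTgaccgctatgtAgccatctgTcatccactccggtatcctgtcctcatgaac
Olfr325: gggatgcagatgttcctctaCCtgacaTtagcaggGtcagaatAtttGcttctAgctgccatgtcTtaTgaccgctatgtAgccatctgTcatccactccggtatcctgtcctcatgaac
Olfr315: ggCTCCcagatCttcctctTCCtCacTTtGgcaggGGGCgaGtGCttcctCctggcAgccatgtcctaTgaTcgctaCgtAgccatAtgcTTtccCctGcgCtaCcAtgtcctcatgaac
Olfr314: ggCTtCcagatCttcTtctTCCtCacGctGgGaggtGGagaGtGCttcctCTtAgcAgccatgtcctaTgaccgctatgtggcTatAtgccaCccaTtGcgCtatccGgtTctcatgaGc
Over this stretch, *Olfr329*, *Olfr328* and *Olfr325* differ from *Olfr330* at 10, 13 and 11 bases, and *Olfr315* and *Olfr314* at 33 and 31 bases.

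Over whole coding sequences, the 4 MOR275 genes of the group were 88.2% to 92.7% identical to each other, and *Olfr315* and *Olfr314* were 66.9% identical to each other. Between a MOR275 and a MOR278 gene the identity was 56.5% to 61.8%, little above the 50.1% to 60.2% between a gene of the group and the cluster's genes of other subfamilies. Read assignment differs accordingly. Of the stretches of 50 bases in the exons, 30.5% in *Olfr325*, 19.3% in *Olfr330*, 14.2% in *Olfr328* and 13.3% in *Olfr329* occurred in at least 1 other OR, so reads of those genes can be divided among MOR275 genes by estimate only, and their separate values are less certain than their sum. *Olfr315* and *Olfr314* shared none with any OR.

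**Figure D1:**
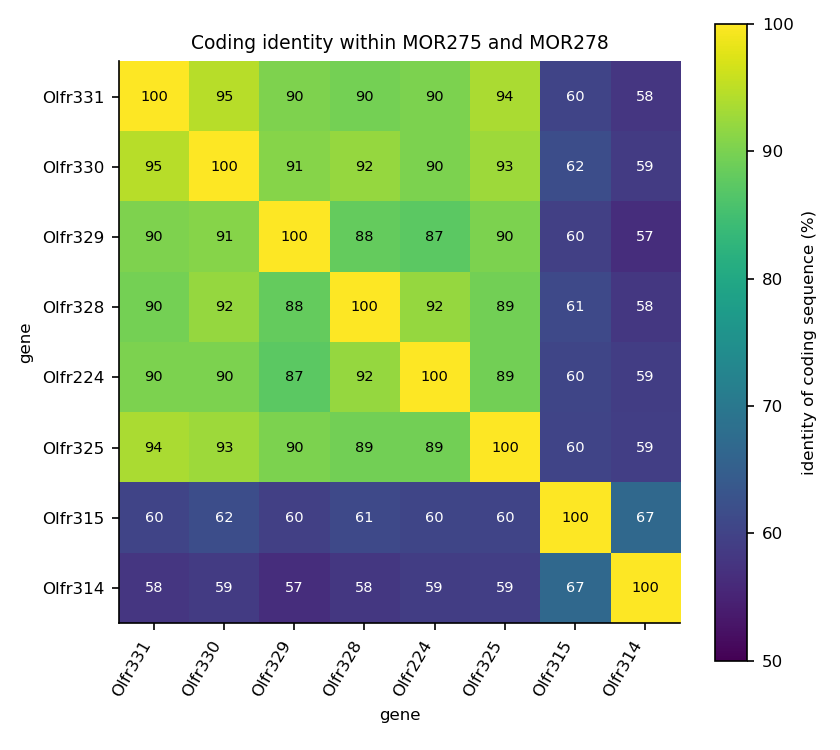
Identity (%) of whole coding sequences between the genes of MOR275 (Olfr331 to Olfr325) and MOR278 (Olfr315 and Olfr314), by color and as rounded numbers. Pairs within MOR275 form a block of high identity, and the MOR278 pair stands apart from it at 66.9%.

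Promoter windows, from 250 bases before to 50 bases after the outermost annotated start, were compared as sequence only. All 4 MOR275 genes of the group and *Olfr224* held a common stretch, printed here as 30 bases with capitals at the 19 positions that are identical in all 5. It lies at chr11:58534888-58534917 (minus strand), chr11:58546404-58546433 (minus), chr11:58555690-58555719 (minus), chr11:58570613-58570642 (minus) and chr11:58577747-58577776 (plus) on GRCm38, and begins 81, 11, 83 and 89 bases before the start in the first 4 genes and 17 bases after it in *Olfr325*.
Olfr330: AATGAGcaGAGatCAGCCAgGgaTGAtgca
Olfr329: AATGAGcaGAGtcCAGCCAgGgaTGAcatc
Olfr328: AATGAGtgGAGttCAGCCAaGaaTGAtgtc
Olfr224: AATGAGtaGAGtcCAGCCAgGgaTGAcgtc
Olfr325: AATGAGcaGAGtcCAGCCAgGggTGAcatc
The identical letters, AATGAGNNGAGNNCAGCCANGNNTGA, were found on either strand in 5 of 1117 OR windows (0.448%), the same 5 from which they were read. *Olfr315* and *Olfr314* do not hold them. Homeodomain core letters TAATTA were present in 24.4% of all OR windows and, among the 6 genes, in that of *Olfr325*, and TAATTG was present in 32.6% of the windows and in none of the 6. These are matches of letters only and do not say where a factor binds. A link between them and the shares of OR reads was not tested.

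In control mice the 6 genes were in the upper part of the ORs by level in the immunoprecipitated RNA, which is not a count of their neurons. Their shares over the 21 control libraries had medians from 0.0656% (*Olfr325*) to 0.170% (*Olfr329*) of OR reads, and the 6 together took 0.424% to 1.24%, with a median of 0.722%. Compared per kb of exon and per 100000 OR reads, the order of median levels in controls was *Olfr315* (60.02 reads), *Olfr328* (50.7), *Olfr330* (42.2), *Olfr329* (41.6), *Olfr325* (39.2) and *Olfr314* (26.9), which ranked between 119 and 308 among the 1117 ORs. *Olfr325* was above *Olfr314* in 19 of the 21 control libraries. Neighbors higher in that order did not differ beyond their spread: *Olfr315* was above *Olfr328* in 14 of 21, *Olfr328* above *Olfr330* in 15, *Olfr330* above *Olfr329* in 10 and *Olfr329* above *Olfr325* in 11.

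Before the 2 exposures that chose the genes are described, their libraries were compared with ORs that the study ties to each odor, and some go against their labels. *Olfr1295*, which the study links to MTMT, took 0.0876%, 0.424% and 0.491% of OR reads in the libraries labelled 10 mM MTMT replicates 1, 2 and 3, against 0.0911%, 0.146% and 0.169% in their controls. It took 0.0858%, 0.432% and 0.101% in the libraries labelled CPD, with 0.106% to 0.113% in the CPD controls. It was therefore at control level in the library labelled 10 mM MTMT replicate 1 and high in the library labelled CPD replicate 2.

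*Olfr1437* and *Olfr235*, which the study links to CPD, were at 0.511% and 0.903% in the library labelled 10 mM MTMT replicate 1, and at 0.103% and 0.0432% in the library labelled CPD replicate 2. CPD replicate 1 carried 0.721% and 1.04%, CPD replicate 3 had 0.0880% and 0.426%, and 10 mM MTMT replicate 3 had 6.29% of *Olfr1437* with 0.0286% of *Olfr235*. In the controls *Olfr1437* was at 0.0359% to 0.0814%, and *Olfr235* at 0.0311% to 0.0949% apart from 0.497% in CPD control 1. No library was moved between groups, and values are given with and without the libraries labelled 10 mM MTMT replicate 1 and CPD replicate 2. High *Olfr1437* in 10 mM MTMT replicate 3 and high *Olfr235* in CPD control 1 go against labels too. Both of those libraries were kept, except where 1 library at a time was left out.

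**Figure D2:**
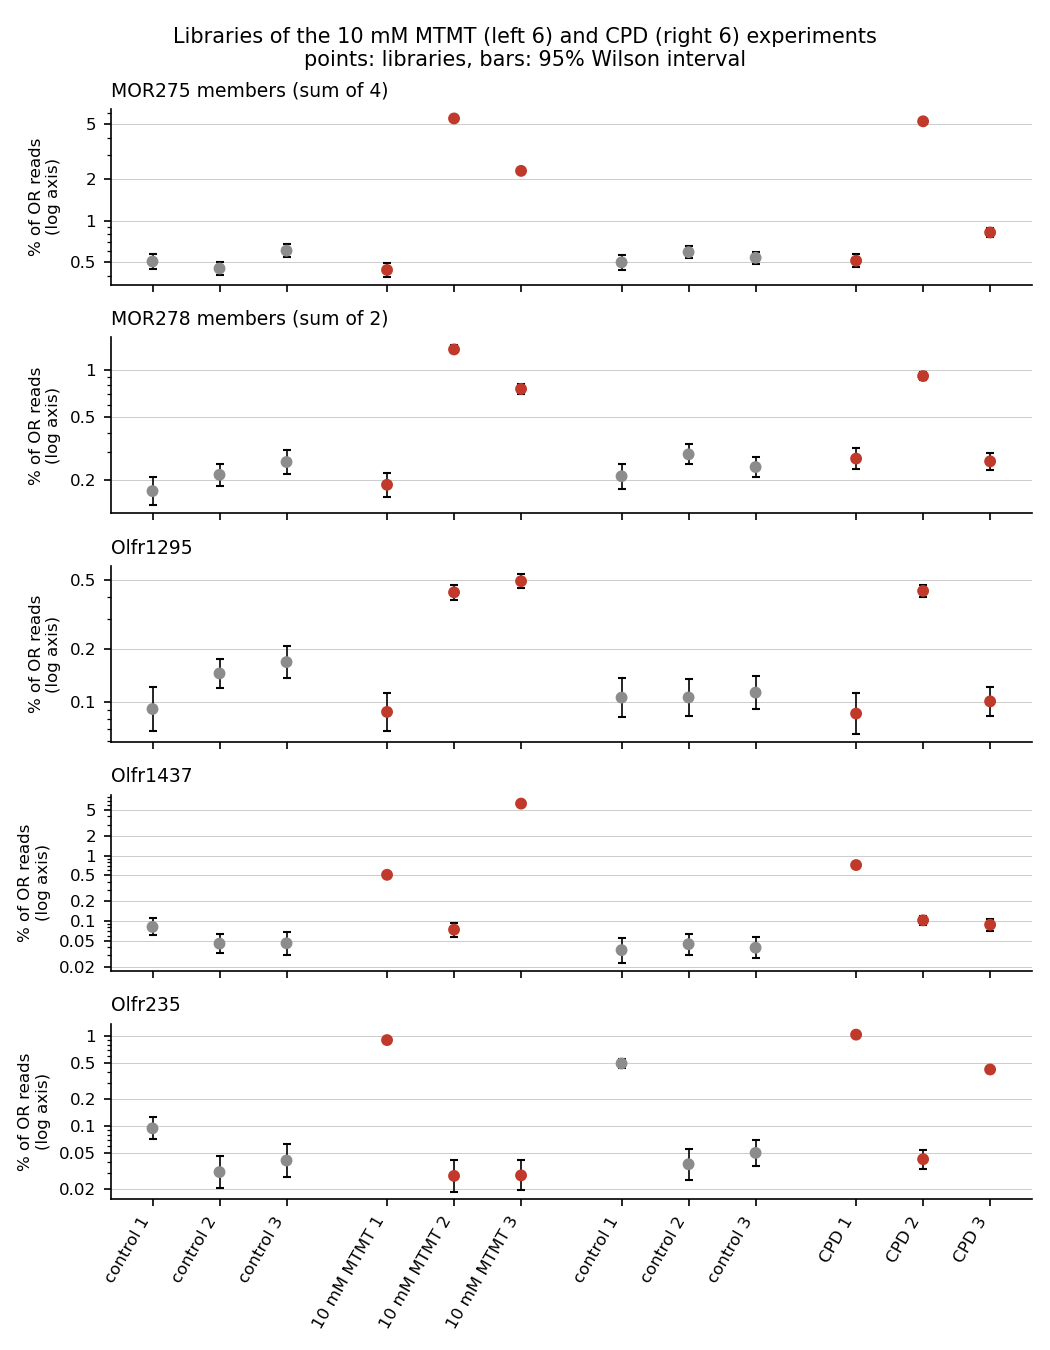
Share of OR reads (%, log axis) in the 3 odor libraries (red) and 3 control libraries (gray) of the 10 mM MTMT and CPD experiments, with 95% Wilson intervals, for the summed MOR275 and MOR278 genes and for Olfr1295, Olfr1437 and Olfr235. The summed genes and Olfr1295 are high in the same 3 libraries, those labelled 10 mM MTMT replicates 2 and 3 and CPD replicate 2.

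After 10 mM MTMT the 6 genes together took 0.628%, 6.85% and 3.05% of OR reads in replicates 1, 2 and 3, against 0.678%, 0.668% and 0.869% in the 3 controls. Relative to the mean of the controls these were 0.851-fold, 9.28-fold and 4.14-fold. Replicates 2 and 3 were high and the library labelled replicate 1 was at control level, so that odor and control libraries overlapped. The 95% Wilson intervals on the 3 odor libraries were 0.572% to 0.690%, 6.68% to 7.02% and 2.95% to 3.17%. They reflect counting within a library alone and hold no variation between mice. Since no molecular identifiers were used, copies made by amplification count as separate reads in them. Labels of replicates 1 and 2 share 1 prefix and those of replicate 3 carry another, in odor and control libraries alike, so a high and a low odor library stood within the first prefix and a high one within the second. The CPD libraries carry the same prefixes, replicates 1 and 2 the first and replicate 3 the second. No other experiment carries either, so every library in which the 6 genes were high has a prefix found only in these experiments. A link between prefix and shares was not tested.

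Among the MOR275 genes, *Olfr330* took 0.131%, 1.27% and 0.914% in replicates 1, 2 and 3 of 10 mM MTMT, against 0.147%, 0.0904% and 0.115% in the controls. *Olfr329* took 0.0847%, 1.92% and 0.679%, against 0.112%, 0.170% and 0.209%, and reached the highest share of the group in a single library. *Olfr328* took 0.155%, 1.53% and 0.457%, against 0.174%, 0.144% and 0.205%. *Olfr325* took 0.0701%, 0.784% and 0.2505%, against 0.0736%, 0.0480% and 0.0795%. Each of these 4 receptors was above all its controls in replicates 2 and 3 and within or below the range of its controls in the library labelled replicate 1.

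The MOR278 receptors followed the same libraries. *Olfr315* took 0.130%, 0.774% and 0.623%, against 0.141%, 0.129% and 0.149% in the controls. *Olfr314* took 0.0570%, 0.568% and 0.132%, against 0.0291%, 0.0876% and 0.111%, and its replicate 3 was only 1.74-fold above the control mean. In replicate 2 the 6 folds ran from 5.54 (*Olfr315*) to 11.7 (*Olfr329*), and in replicate 3 from 1.74 (*Olfr314*) to 7.77 (*Olfr330*), so the order of the genes differed between the 2 libraries. Since *Olfr315* and *Olfr314* share no 50-base stretch with another OR, an exact read of 50 bases from them could not be divided with the MOR275 genes.

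Fitted over all 6 libraries with edgeR, the log2 fold changes ranged from 2.16 (*Olfr314*) to 3.15 (*Olfr330*), with standard errors of 0.61 to 0.89 and a median over all ORs of 0.03. None of the 6 genes had all 3 odor libraries above all 3 controls, which held for 0.759% of the 1054 ORs tested. Without the library labelled replicate 1, both remaining libraries were above all 3 controls for each of the 6, as for 4.70% of ORs, and the log2 fold changes were 2.64 to 3.66. These counts describe the contrast on which the genes were chosen.

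CPD exposure gave high values in 1 library. The 6 genes together took 0.788%, 6.16% and 1.09% of OR reads in CPD replicates 1, 2 and 3, against 0.712%, 0.885% and 0.782% in the controls, or 0.994-fold, 7.77-fold and 1.37-fold the control mean. *Olfr330* was at 0.0940%, 1.75% and 0.227%, against 0.119% to 0.149% in the controls. *Olfr329* was at 0.178%, 1.54% and 0.228%, against 0.164% to 0.206%. All 6 receptors were high in the library labelled CPD replicate 2, a library whose *Olfr1295* and *Olfr235* shares go against its label. Its *Olfr1437* share, 0.103%, was above the 0.0359% to 0.0443% of the CPD controls.

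*Olfr328* took 0.173%, 1.41% and 0.258% in the CPD libraries, against 0.147% to 0.180% in the controls, and *Olfr325* took 0.0693%, 0.557% and 0.111%, against 0.0661% to 0.0918%. *Olfr315* was at 0.183%, 0.467% and 0.189%, against 0.159% to 0.214%. *Olfr314* was at 0.0907%, 0.443% and 0.0743%, against 0.0529% to 0.0797%. In replicate 2 the folds over the control mean ran from 2.62 (*Olfr315*) to 13.5 (*Olfr330*), and in replicate 3 from 1.06 (*Olfr315*) to 1.74 (*Olfr330*), with the 4 MOR275 receptors above their controls there. The MOR275 sum in replicate 3 was 0.824%, with a 95% Wilson interval of 0.770% to 0.881%, against 0.501% to 0.594% in the controls. It lay inside the range of all 21 control libraries, 0.330% to 0.868%.

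The fitted log2 fold changes after CPD were 0.85 (*Olfr315*) to 2.69 (*Olfr330*) over all 6 libraries, and 0.08 to 0.47 without the library labelled CPD replicate 2. None of the 6 genes had all 3 CPD libraries above all 3 controls, against 2.19% of the 1050 ORs tested. Without CPD replicate 2, the library against its label, the count was also 0. Without CPD replicate 1 it was 4 of 6, *Olfr325*, *Olfr328*, *Olfr329* and *Olfr330*, beside 5.84% of ORs. CPD replicate 1 had the highest *Olfr1437* and *Olfr235* shares of the CPD libraries, so leaving it out does not remove a library against its label. These counts, too, describe a contrast on which the genes were chosen.

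High shares in these 3 libraries were limited to part of the cluster. Of the 13 other ORs numbered *Olfr311* to *Olfr332*, 9 had a mean of at least 20 reads per library, and their median fold over controls was 0.672 in 10 mM MTMT replicate 2, 0.829 in replicate 3 and 0.961 in CPD replicate 2, with no value above 1.52. None of the 13 had all 3 libraries above the controls after 10 mM MTMT, and 1, *Olfr316*, did after CPD, at 1.13-fold to 1.22-fold. In all 10 comparisons 1 of the 13 was called by edgeR's quasi-likelihood test, *Olfr316* after 100% SBT (log2 fold change 2.19, standard error 0.63, adjusted p = 0.0381). *Olfr224*, a MOR275 gene that is not among the 6, took 0.124%, 1.55% and 1.54% after 10 mM MTMT and 0.163%, 1.26% and 0.228% after CPD, against 0.147% to 0.223% in the 6 controls.

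**Figure D3:**
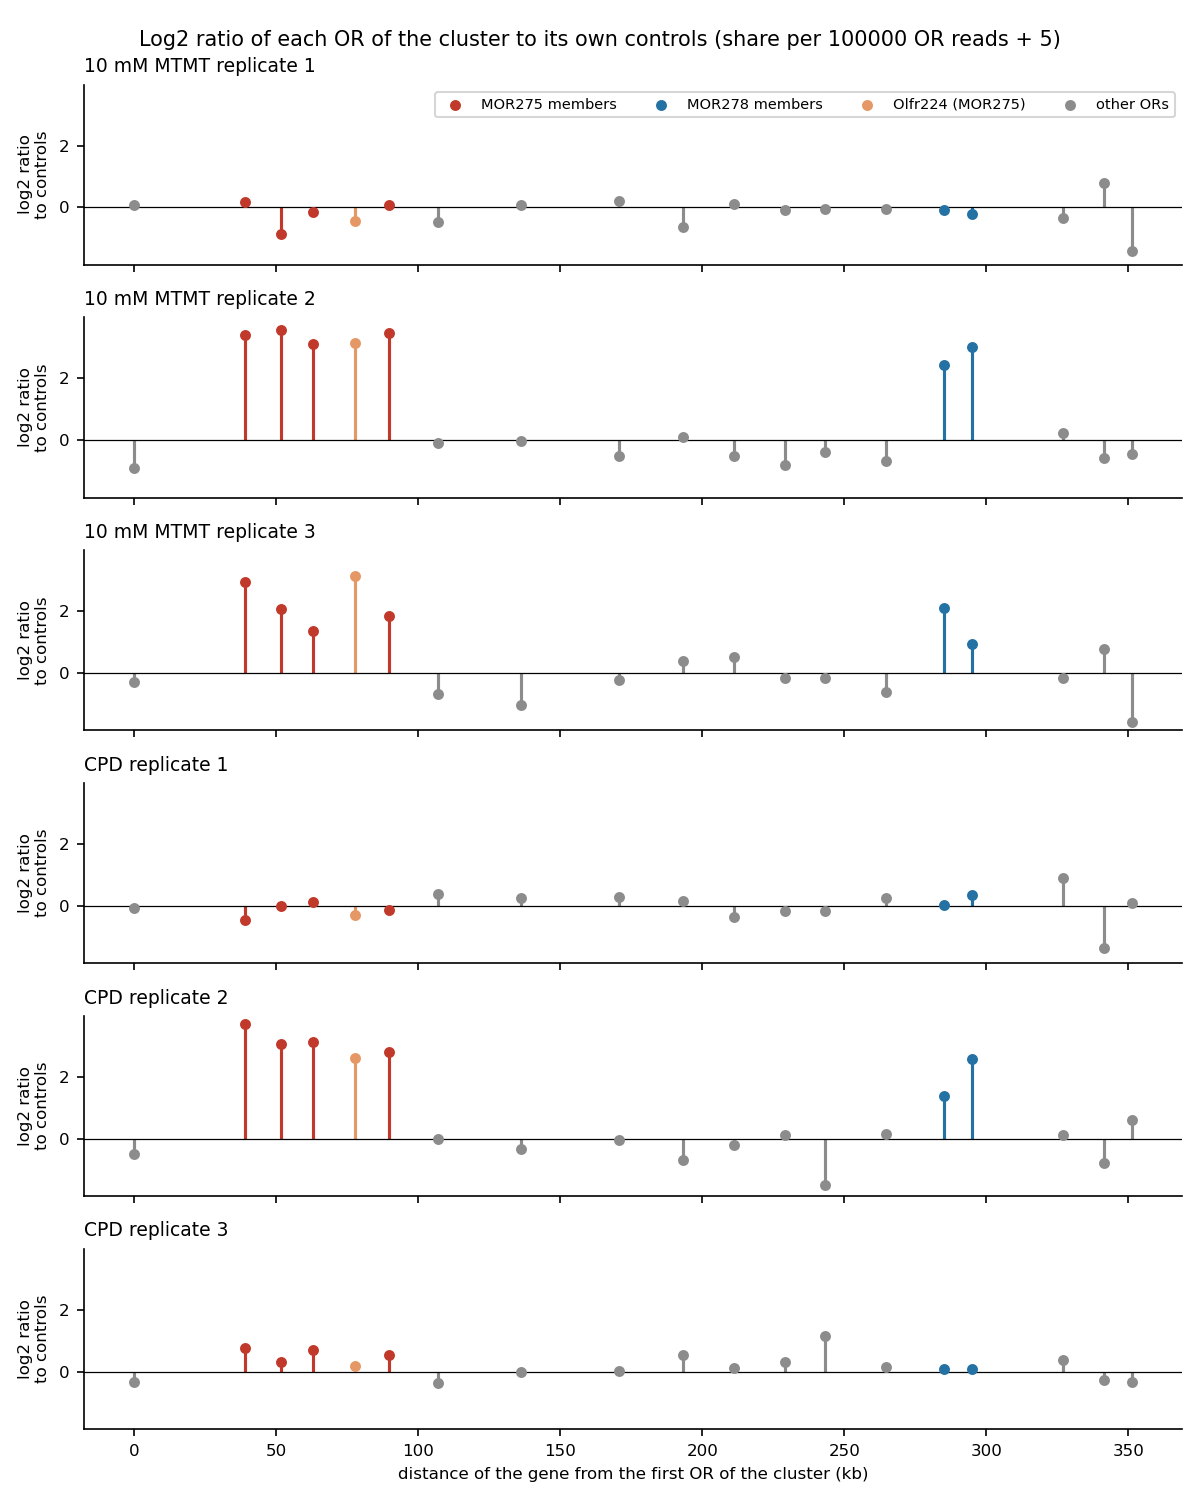
Log2 ratio of each cluster OR to the mean of its own 3 controls (share per 100000 OR reads plus 5) against distance along the cluster in kb, in each odor library of the 10 mM MTMT and CPD experiments; ORs with a mean under 10 reads are left out. MOR275 and MOR278 genes stand up at 2 separate places in 10 mM MTMT replicates 2 and 3 and CPD replicate 2, while no OR between them does.

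The lower dose, 100 μM MTMT, was not among the 2 exposures whose high libraries chose the genes, and it was tested, although it belonged to the groups with which those libraries were compared. *Olfr315* took 0.203%, 0.494% and 0.324% of OR reads, against 0.107%, 0.215% and 0.127% in the controls, with replicate 1 inside the range of the controls and each library above the control of the same number. The fitted log2 fold change was 1.17 with a standard error of 0.31 (edgeR's quasi-likelihood test, adjusted over all ORs by Benjamini-Hochberg, adjusted p = 0.168), which did not pass the threshold of 0.05. Over 11 alternative settings its adjusted p ranged from 0.0137 to 1.00 and passed in 2, with the replicate number as a block (0.0137) and without 100 μM MTMT replicate 1 (0.0374), and its log2 fold change ranged from 0.77 to 1.497.

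The other 5 genes had log2 fold changes from -0.16 (*Olfr314*) to 0.48 (*Olfr330*) at 100 μM MTMT, each with an adjusted p of 0.955 or above by the same test. *Olfr325* took 0.116%, 0.0769% and 0.0723%, against 0.0624%, 0.0624% and 0.0632%, and was the 1 gene of the 6 with all 3 libraries above all 3 controls, as were 4.87% of the 1068 ORs tested. Separation of this kind was not particular to MTMT. *Olfr325* was also above the same 3 controls after 2,5-DMP, at 0.0906%, 0.0923% and 0.0833%, as were 6.26% of ORs, and *Olfr314* was above its controls after 0.01% SBT, at 0.0437%, 0.0461% and 0.0859% against 0.0379%, 0.0398% and 0.0167%, as were 3.08% of ORs. *Olfr330* took 0.179%, 0.209% and 0.165%, against 0.0927%, 0.171% and 0.123%. None of the 6 was called higher, against 0.281% of ORs. *Olfr224* was at 0.391%, 0.799% and 0.528%, against 0.147%, 0.288% and 0.259% (log2 fold change 1.29, standard error 0.30, edgeR adjusted p = 0.0738). The *Olfr315* shares of 0.203%, 0.494% and 0.324% at 100 μM stand beside 0.130%, 0.774% and 0.623% at 10 mM, and the difference between the doses was not tested.

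In the other 7 exposures none of the 6 genes was called higher or lower by edgeR's quasi-likelihood test. These exposures, too, belonged to the groups with which the libraries that chose the genes were compared. An absence of calls there is therefore not independent of the choice. The share of all tested ORs called higher was 1.77% after (E)-β-farnesene, 0.841% after 2,5-DMP, 0% after β-caryophyllene, 0.564% after DHB, 0.466% after 0.01% SBT, 0.863% after 1% SBT and 10.7% after 100% SBT. The 48 tests of 6 genes in 8 exposures were not independent, since MOR275 genes share reads and some exposures share controls. Their counts are a description. By edgeR, 4 of the 48 (8.33%) had an unadjusted p below 0.05, beside 6.52% of all OR tests in these exposures (553 of 8486). None of the 48 passed after adjustment over all ORs, by edgeR or by DESeq2. Those 4 were *Olfr315* after 100 μM MTMT, *Olfr314* after (E)-β-farnesene (log2 fold change -0.74, standard error 0.28) and after 0.01% SBT (0.90, standard error 0.40), and *Olfr328* after 1% SBT (-0.88, standard error 0.41). After 100% SBT, where 112 ORs were called higher and 8 lower, the 6 log2 fold changes were -0.68 to -0.05, with a median of -0.24 beside -0.07 over all ORs.

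**Figure D4:**
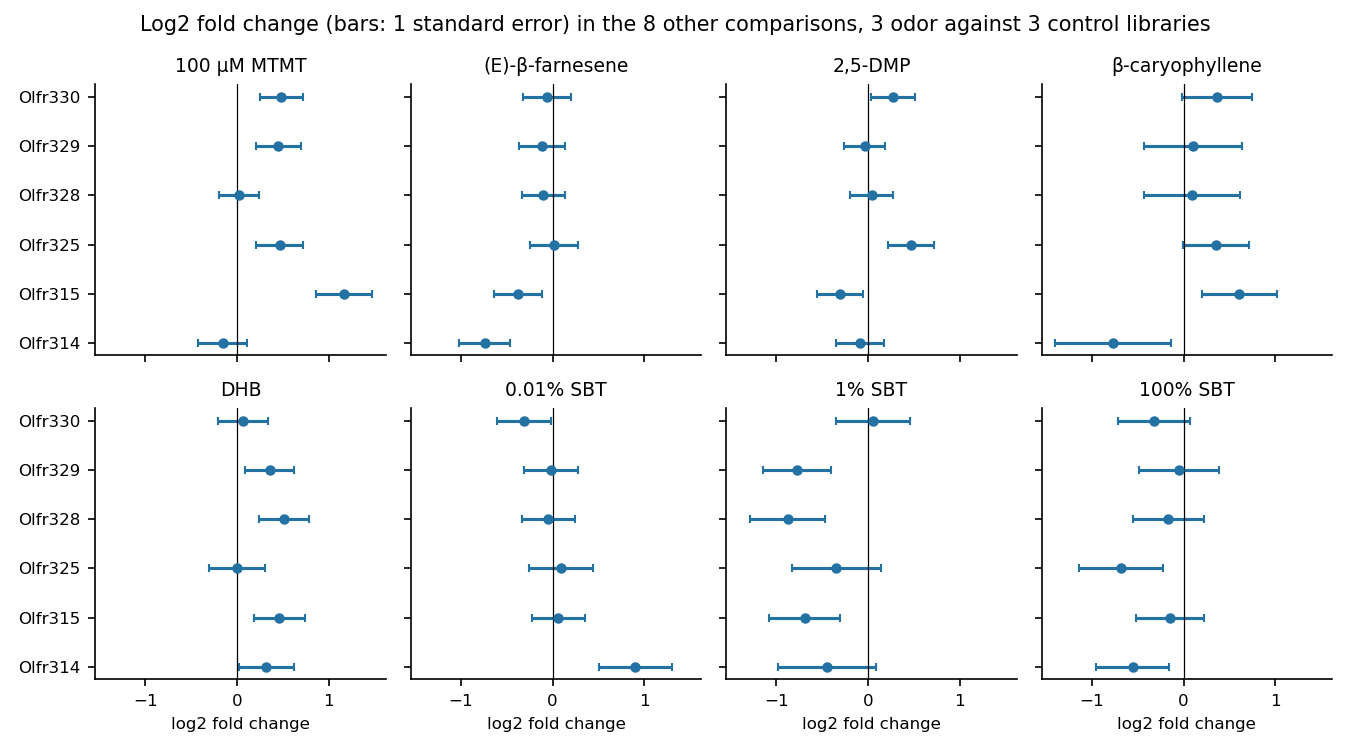
Log2 fold change (points) and 1 standard error (bars) of the 6 genes in the 8 exposures other than 10 mM MTMT and CPD, 3 odor against 3 control libraries each. Olfr315 after 100 μM MTMT is the highest value, at 1.17, and every other point lies between -0.88 and 0.90.

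Single libraries varied more than the group means. Over the 24 odor libraries of these 8 exposures, the median fold of the 6 genes over their own controls was 0.400 to 1.44 per library, and 4 of 144 single values exceeded 2-fold. The highest was *Olfr315* in 100 μM MTMT replicate 2, at 3.30-fold, and the lowest *Olfr314* in β-caryophyllene replicate 2, at 0.0683-fold. In that β-caryophyllene library *Olfr314* had 5 reads (0.00500%), *Olfr328* 27 (0.0270%) and *Olfr329* 33 (0.0330%), against control shares of 0.0681% to 0.0764%, 0.110% to 0.120% and 0.126% to 0.189%, while *Olfr330* took 0.236%, *Olfr315* 0.146% and *Olfr325* 0.0770%. Among 470 ORs with a mean of at least 50 reads per library, 38 were below 0.25-fold there, against 0 to 21 in the other 29 odor libraries. Of the 6 genes, 3 were below 0.25-fold in it. Low values in this library were therefore not confined to the cluster. The library was picked out by the lowest value of the 6 genes, and *Olfr328* and *Olfr329* share reads. The 3 low genes are therefore a description of 1 mouse, and an excess over the 470 ORs was not tested.

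**Figure D5:**
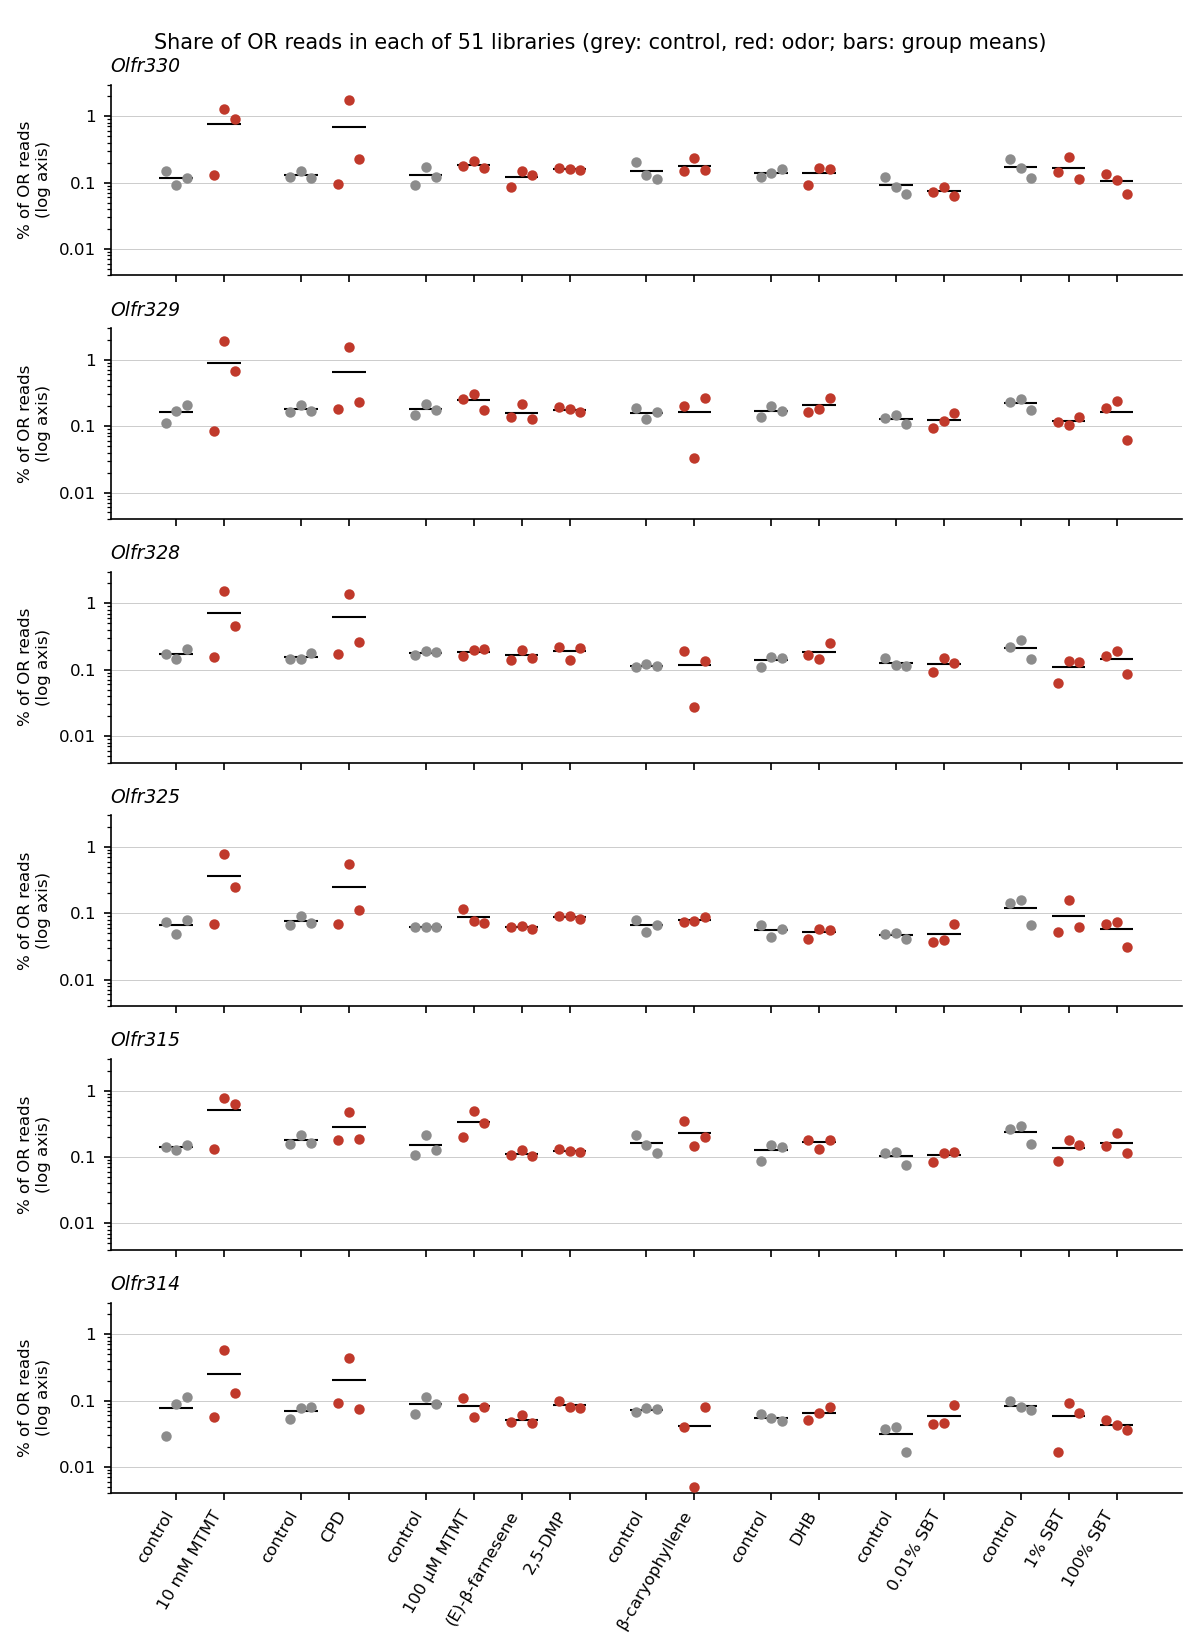
Share of OR reads (%, log axis) of the 6 genes in each of the 51 libraries, by experiment, with control libraries in gray, odor libraries in red and group means as bars. Every share above 0.494% is in 10 mM MTMT replicates 2 and 3 or CPD replicate 2, and the low points after β-caryophyllene are replicate 2.

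Across the 39 libraries of the other experiments the highest share of each gene was 0.114% for *Olfr314*, 0.494% for *Olfr315*, 0.159% for *Olfr325*, 0.285% for *Olfr328*, 0.310% for *Olfr329* and 0.243% for *Olfr330*. The 6 together reached 1.35% at most there, in 100 μM MTMT replicate 2, below the 3.05%, 6.16% and 6.85% of the 3 high libraries.

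Likeness to the group was measured as Pearson's r, over the 30 odor libraries, between the log2 ratio of an OR to its own controls and the mean log2 ratio of the 6 genes. Libraries of 1 experiment share controls, the genes were chosen on 6 of these libraries, and the 3 high libraries carry much of the variation, so r is a description. Among 783 other ORs with a mean of at least 20 reads, the 8 most alike were *Olfr224* (r = 0.92), *Olfr31* (0.92), *Olfr1257* (0.91), *Olfr725* (0.88), *Olfr1396* (0.87), *Olfr728* (0.87), *Olfr1299* (0.82) and *Olfr720* (0.80), beside a median of -0.06. *Olfr31* was at 5.46-fold, 4.32-fold and 4.995-fold its controls in 10 mM MTMT replicates 2 and 3 and CPD replicate 2, and *Olfr1257* at 4.91-fold, 2.15-fold and 5.40-fold. Apart from *Olfr224*, these ORs lie outside the cluster, on chromosomes 2, 11 and 14. Over the 24 odor libraries outside the 2 exposures, r was 0.80 for *Olfr224* and 0.78 for *Olfr31*, and 4 of the 8 remained among the 8 most alike. Between pairs of the 6 genes, the median r was 0.80 over 30 libraries and 0.50 over those 24, where it ranged from -0.01 to 0.86.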

How the data were processed

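Reads of 50 or 75 bases came from SMART-Seq v4 and Nextera XT libraries, which do not mark strand. The authors aligned them with STAR to GRCm38.p6 (GENCODE M25, 1 gene model deleted), allowing 10 loci per read, and quantified genes with RSEM. The deposited expected counts are whole numbers, not normalized, of intact ORs. The authors' own edgeR statistics were not used, nor were 6 columns of a further table that matched no sample.

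A share is the percent of all OR reads of a library. Groups of 3 were tested by the quasi-likelihood method of edgeR 4.0.16 (R 4.3.3) without a block, using TMM factors over ORs, a minimum of 10 reads per OR in the comparison, Benjamini-Hochberg adjustment over all ORs tested and a threshold of 0.05. This was tested on simulated data. A standard error is the log2 fold change divided by the square root of F. The study used matched littermates, but no source used here says that equal replicate numbers mark a litter. Deviations of same-numbered odor and control libraries correlated at 0.02 to 0.39, above 0.1 for all 3 numbers in 7 of 10 comparisons (not 10 mM MTMT, 100 μM MTMT and 0.01% SBT). These 7 met the criterion for pairs, but the main fits have no block there either. As an alternative setting, the block changed no call on the 6 genes there.

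Alternatives were the replicate block, DESeq2 1.42.0, library totals, a filter of 1 read, 1 fit of all 51 libraries, each library left out, effective library sizes, a pseudocount of 1 in place of 5, Spearman's rho and likeness over 24 libraries. Named were the 6 genes, the ORs tied to MTMT and CPD, *Olfr311* to *Olfr332* if called or without overlap, and the 8 ORs most alike. *Olfr331* was added after its values were seen. The genes and lists were chosen with earlier results of these data known. Gene models came from GENCODE M21 (all 1117 ORs matched by Ensembl ID), subfamily names from RefSeq and sequences from GRCm38.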

Additional observations from a re-analysis of the deposited data

How the results depend on the processing

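Over 8 exposures and 11 alternatives each, 86 of 88 counts of genes called higher stayed at 0. The exceptions were at 100 μM MTMT, where the replicate block called 1 gene, *Olfr315*, and leaving out 1 library at a time gave 0 to 1, with *Olfr315* called without 100 μM MTMT replicate 1. There the replicate numbers did not meet the criterion for pairs. The replicate block left the other 7 counts at 0. Of the 6 genes, 0 had odor libraries wholly above controls after 10 mM MTMT or CPD. Leaving out 1 library gave 0 to 6 after 10 mM MTMT, with 6 without the library labelled replicate 1 (4.70% of ORs) and 1 without control 1. It gave 0 to 4 after CPD, with 4 without replicate 1 (5.84% of ORs). There it gave 1 without replicate 3, 2 without control 2 and 1 without control 3. For the other left-out libraries the share of all ORs was not computed, so their counts cannot be set beside it. With effective library sizes and no library left out, the count stayed at 0 after both exposures. In the 10 mM MTMT comparison edgeR called 0 of all ORs, also with the replicate block (69 had an unadjusted p below 0.05), and DESeq2 called 15. In the CPD comparison edgeR called 0, with the replicate block too (40 had an unadjusted p below 0.05), and DESeq2 called 1. These calls are over all ORs and test nothing about the 6 genes, which were chosen on these exposures. A pseudocount of 1 moved none of 60 mean log2 ratios by more than their standard deviation between replicates. With Spearman's rho 5 of the 8 ORs most alike were retained. With 3 mice per group, some libraries against their labels and the MOR275 genes sharing reads, the values of single genes are less certain than the sums.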
